A study of Mus musculus with 5 samples.

Results

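Growth cone and microtubule-associated proteins build and steer the tip of a growing nerve cell process, and their genes are widely used as signs of neurite outgrowth. A set of 10 such mouse genes was followed through the treatment of mouse embryonic fibroblasts (MEFs) with the defined medium 5C, which the study used to turn these connective tissue cells into neuron-like cells. The genes were given by symbol and were matched to their Ensembl identifiers, which gave 10 of the 27729 genes in the tables. They comprise the growth cone membrane proteins Gap43 and Basp1, the structural microtubule-associated proteins Map1b, Map2 and Mapt, the stathmins Stmn1 and Stmn2, and the collapsin response mediator proteins Dpysl2, Dpysl3 and Crmp1. Of these, 9 reached 10 expected counts in at least 1 library and 8 reached 100. Mapt stayed under the first limit, and Crmp1 stayed under the second.

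The cells were MEFs of the ICR strain, cultured before the change of medium in DMEM with fetal bovine serum (day 0) and then lysed after 2, 5, 10 or 14 days in the induction medium. The labels name no transgene and no gene deletion. The medium, which the labels call 6C and the study calls 5C, holds DMEM/F12 with vitamin C, 2-mercaptoethanol, N2 supplement, leukemia inhibitory factor and basic fibroblast growth factor, and has no serum. The fibroblasts came from mid-gestation embryos without head and organs, and weakly attached cells had been washed away before use. The whole culture was lysed, so each library mixes converted and unconverted cells, and fewer cells of a type cannot be told apart from less RNA per cell. There was 1 library per day, so day and library preparation cannot be told apart, no test between days was possible and no difference has a replicate check.

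As background, the growth cone is a flattened, actin-rich sheet into which microtubules push from the axon behind it. Gap43 and Basp1 are fatty-acylated proteins on the inner face of its membrane that regulate actin, microtubule-associated proteins bind along the microtubule wall and stiffen it, stathmins hold free tubulin dimers and favour disassembly, and collapsin response mediator proteins bind tubulin dimers and relay repulsive guidance signals. Several of these genes are not restricted to neurons, since stathmin 1 is abundant in dividing cells and Gap43 is also made by Schwann cells and their precursors.

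The libraries held between 2253748 (day 2) and 3890334 (day 0) expected counts, and 3 counts, taken as the floor, corresponded to between 0.771 and 1.33 per 1000000 counts. The day 2 library stood apart in that Gm42418 took 4.79% of its counts, against between 0.0484% and 0.109% in the other libraries. All 10 fibroblast markers examined, among them Col1a1 and Vim, were detected in every library. The neuron markers Rbfox3 and Ina were at 0 in all 5 libraries, and 7 of 13 neuron markers were at 0 on day 14.

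RefSeq promoter sequences of build GRCm38.p6 were at hand for 4 of the 10 genes. They are shown for Map1b, which had higher counts on the later days, and for Basp1 and Map2, which had lower counts, since these genes moved in opposite directions under the same medium. Each run gives the 250 bases before the annotated start, 5′ to 3′ on the strand of the gene, at chr13:99516603-99516852 (minus strand) for Map1b, chr15:25413765-25414014 (minus strand) for Basp1 and chr1:66175079-66175328 (plus strand) for Map2. The start is that of RefSeq, while gene coordinates given below are from the GENCODE annotation. In GENCODE the Map2 gene begins at 66175273, inside this Map2 stretch, and the Map1b gene ends at 99516540, not adjoining the Map1b stretch. Capitals mark the GC box GGGCGG and the TATA box TATAAA, each searched on both strands.
Map1b: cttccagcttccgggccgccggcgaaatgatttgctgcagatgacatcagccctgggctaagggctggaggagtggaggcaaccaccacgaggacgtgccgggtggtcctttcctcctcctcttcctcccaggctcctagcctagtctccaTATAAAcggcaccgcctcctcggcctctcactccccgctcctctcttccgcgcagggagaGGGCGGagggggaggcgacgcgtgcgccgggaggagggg
Basp1: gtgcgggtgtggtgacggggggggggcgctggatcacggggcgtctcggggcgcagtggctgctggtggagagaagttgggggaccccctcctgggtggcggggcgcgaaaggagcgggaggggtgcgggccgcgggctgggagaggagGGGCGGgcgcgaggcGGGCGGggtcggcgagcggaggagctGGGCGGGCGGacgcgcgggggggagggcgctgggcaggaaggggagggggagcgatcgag
Map2: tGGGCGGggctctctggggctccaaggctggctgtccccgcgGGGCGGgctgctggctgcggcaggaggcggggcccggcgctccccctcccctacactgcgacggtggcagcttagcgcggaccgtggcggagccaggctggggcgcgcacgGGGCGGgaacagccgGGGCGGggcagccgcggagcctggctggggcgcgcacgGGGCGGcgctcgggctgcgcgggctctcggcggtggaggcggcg
The Map1b stretch held 1 GC box, which began 39 bases before the start, and 1 TATA box, which began 99 bases before it. The Basp1 stretch held 4 GC boxes, of which 2 overlap each other, and the Map2 stretch 5, with no TATA box in either. Of 32536 mouse promoters of the same length, 33.0% held a GC box and 12.3% a TATA box. Guanine and cytosine made up 66.4% of the Map1b stretch, 78.8% of the Basp1 stretch and 81.2% of the Map2 stretch, beside a median of 52.4% over all promoters. The letters CCAAT and the Sox core ACAAAG were in none of these 3 stretches, while 33.8% and 16.5% of all promoters held them. For Crmp1, which was over 2-fold above day 0 on days 2 and 5, there were 2 promoters, not shown. They held 5 and 2 GC boxes and no TATA box, with 75.6% and 59.6% guanine and cytosine. The Sox core was in each of these 2 promoters. Whether any of these letters go with the direction of change was not tested. A match describes the letters in this window and no factor was measured on it.

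The values below are normalized counts, which are expected counts divided by the effective size of their library and brought to a common scale, and a change is the log2 of the ratio to the day 0 library after 1 was added to both. Values in brackets are 95% intervals by the exact Clopper-Pearson method, which hold counting error but not the spread between cultures. Series of 5 values run in order from day 0 to day 14, and series of 4 changes run from day 2 to day 14. Across the days the 10 genes did not move together. The normalized count was highest on day 0 for 4 genes (Basp1, Map2, Stmn2 and Dpysl3), on day 2 for Dpysl2 and Crmp1, on day 5 for Stmn1, on day 10 for Mapt and on day 14 for Gap43 and Map1b. In TPM, the deposited value per gene length, the highest day was another for 4 of the 10, being day 10 for Map1b, Map2 and Dpysl3 and day 14 for Dpysl2. Genes known best from neurons were thus found on both sides, with Gap43 far above day 0 on the last day and Stmn2 and Map2 below it.

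**Figure D1:**
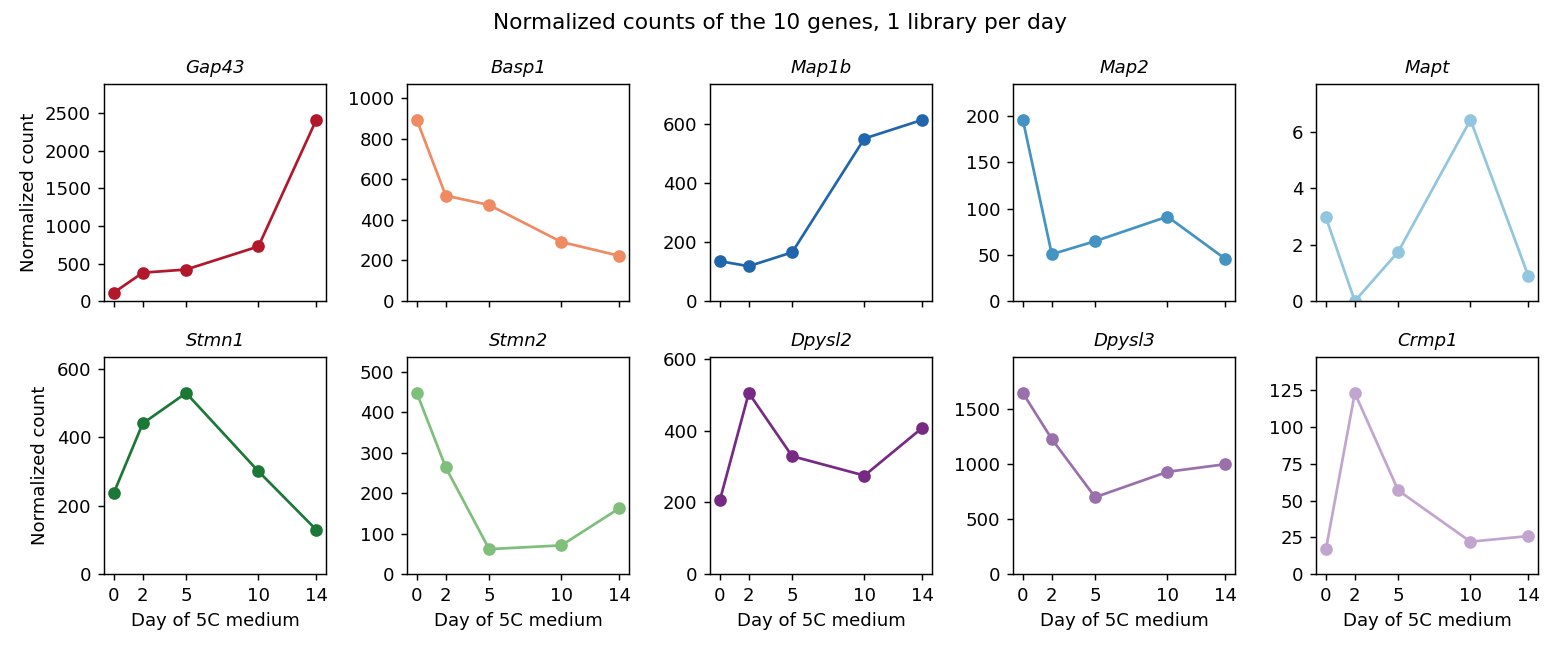
Normalized count (vertical axis, its own scale from 0 for each gene) against day of 5C medium (horizontal axis) for the 10 genes; each point is 1 library. Gap43 and Map1b end at their highest values, Basp1 falls at each step from 892 to 223, and Stmn1 and Crmp1 peak on days 5 and 2.

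Counts past 2-fold were read against all 13346 genes that reached 10 expected counts in any library, and only the 9 genes of the set that met this limit were counted. On day 2, 3 of the 9 (Gap43, Dpysl2 and Crmp1) were over 2-fold above day 0, beside 15.2% of all genes, and 1 (Map2) was over 2-fold below, beside 13.1%. On day 5, 3 (Gap43, Stmn1 and Crmp1) were above, beside 20.2% of all genes, and 3 (Map2, Stmn2 and Dpysl3) were below, beside 13.6%. On day 10, 2 (Gap43 and Map1b) were above, beside 28.7%, and 3 (Basp1, Map2 and Stmn2) were below, beside 22.3%. On day 14 the same 2 genes were above and the same 3 below, beside 24.5% and 19.9% of all genes. With 9 genes, 1 gene more or less is a large part of each count, and the counts describe the set without setting it apart from other genes. All comparisons share the day 0 library. The median log2 change of the 9 genes was -0.20, 0.29, 0.34 and -0.72, where that of all 13346 genes was -0.03, 0.05, 0.14 and 0.07.

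Gene length moved with the changes. When all genes were split by length into 5 classes of equal size, the median log2 change of the shortest class, up to 1430 bases, was -1.15 on day 10 and -0.78 on day 14, and that of the longest class, from 4200 bases, was 0.92 and 0.50. Gap43 and Stmn1 belong to the shortest class, Basp1 and Stmn2 to the next, Crmp1 to the middle one, and Map1b, Map2, Dpysl2 and Dpysl3 to the longest. The part of length in the changes of single genes was not tested. Values relative to genes of like length are given for some of the changes they alter. A change given without such a value may also depend on length.

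**Figure D2:**
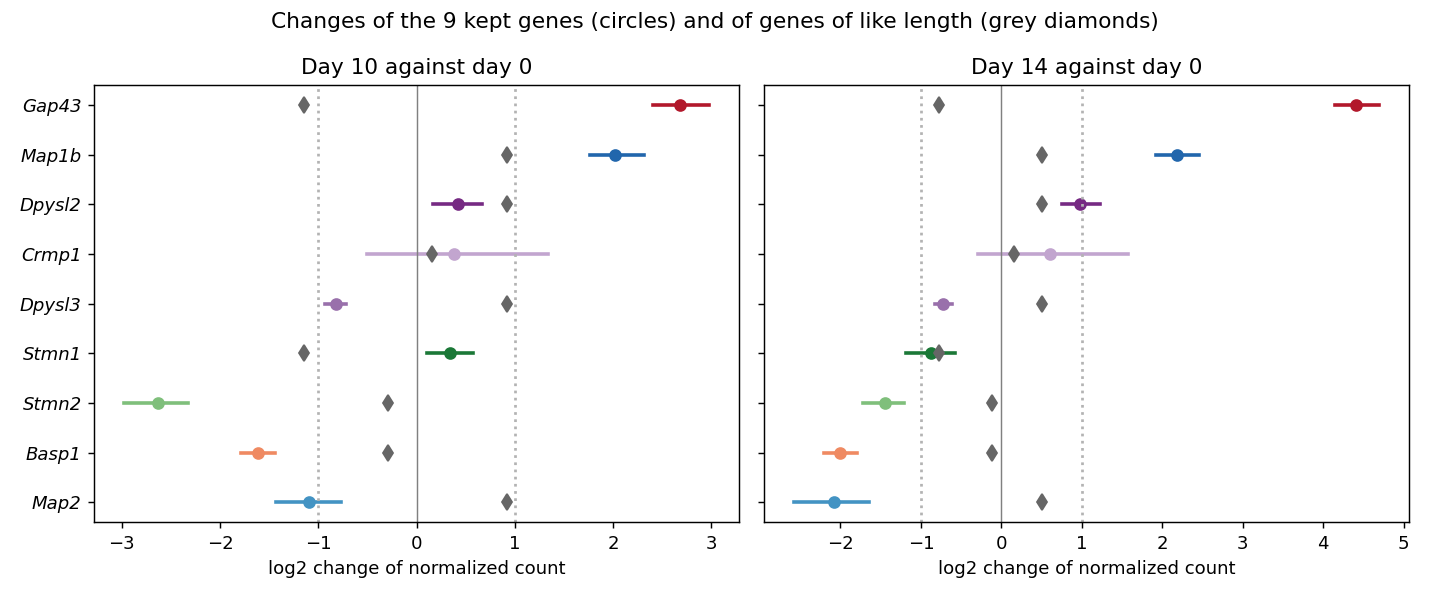
Log2 change of the normalized count (horizontal axis) of the 9 genes with 10 or more counts on day 10 (left) and day 14 (right) against day 0. Circles are the genes with 95% counting intervals, grey diamonds the median change of all genes in the same length class, and dotted lines mark 2-fold; Gap43 lies at 4.41 on day 14, where the diamond of its length class is at -0.78, while Map2, at -2.08, lies below a diamond at 0.50.

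The 2 growth cone membrane proteins moved in opposite directions. Gap43 (ENSMUSG00000047261, chr16:42248442-42340651, minus strand, GRCm38), the growth-associated protein whose phosphorylation by protein kinase C accompanies axon growth, had normalized counts of 113, 378, 420, 727 and 2411 from day 0 to day 14. It was lowest in the fibroblasts and highest in the last library. On this scale it changed little between days 2 and 5. Its log2 changes were 1.74 (1.41 to 2.09), 1.89 (1.60 to 2.20), 2.68 (2.41 to 2.98) and 4.41 (4.15 to 4.70), the last being 21.2-fold. The step between days 2 and 5 was 0.15 (-0.09 to 0.39) on the log2 scale. The step between days 5 and 10 was 0.79 (0.63 to 0.95), and that between days 10 and 14 was 1.73 (1.63 to 1.84). Against genes of like length the changes were 1.62, 2.46, 3.83 and 5.19, with a rise between days 2 and 5 too. In TPM the changes on days 2 and 5 were 1.75 and 2.56, or 1.95 on both days relative to the median of all genes. Gap43 is listed in the study among the genes of neuron projection and fate that were grouped on these same libraries, so its direction here is not independent evidence of that grouping.

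Basp1 (ENSMUSG00000045763, chr15:25363277-25413764, minus strand), the brain abundant membrane-attached signal protein that shares with Gap43 a seat at the membrane and an action on actin, had its highest value on day 0. Its normalized count was 892, 519, 473, 291 and 223 in the 5 libraries. The fibroblasts thus held the most, and each later library held less than the one before, although the step from day 2 to day 5 (-0.14, interval -0.35 to 0.08) was within counting error. In TPM it was again highest on day 0, with 171, but the day 2 library, with 82.9, lay below that of day 5, with 148. The normalized count was over 2-fold lower on day 10 (-1.61, interval -1.79 to -1.44), but in TPM the change was -0.45, or -1.54 relative to the median of all genes. By day 2 the log2 change was -0.78 (-0.98 to -0.59), and on day 14 the normalized count was 3.99-fold lower than on day 0, a log2 change of -2.0 (-2.21 to -1.80). On the per-length scale of TPM, which also allows levels of different genes to be compared, Gap43 stood at 0.165 (0.135 to 0.201) of the level of Basp1 on day 0 and at 14.1 (12.4 to 16.1) times its level on day 14. Of the related membrane and actin proteins of the MARCKS family, neither passed 2-fold on any day: the log2 change on day 14 was 0.62 for Marcks and -0.48 for Marcksl1.

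The structural microtubule-associated proteins divided in the same manner. Map1b (ENSMUSG00000052727, chr13:99421446-99516540, minus strand), which coats the microtubules of young, growing axons, had normalized counts of 135, 118, 165, 550 and 613. The last 2 libraries stood well above the first 3. Among the first 3, the step from day 2 to day 5 was 0.48 (0.07 to 0.91) on the log2 scale. On day 5 the change against day 0 was 0.29 (-0.04 to 0.62), or -0.05 relative to genes of like length. In TPM the day 5 change was 0.85, or 0.24 relative to the median of all genes. The step from day 5 to day 10 was 1.74 (1.51 to 1.98) on the log2 scale, whereas the change on day 2 (-0.20, interval -0.64 to 0.24) was within counting error. Against day 0 the count was 4.06-fold higher on day 10 and 4.52-fold higher on day 14. Genes of like length were higher too, and relative to them the log2 change of Map1b was 1.10 on day 10 and 1.67 on day 14. Map1b is likewise in a group that the study formed on these libraries. The study also measured Map1b by quantitative PCR during the conversion and reports higher levels in MEFs that overexpressed Sox2. Those measurements were not analysed here.

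Map2 (ENSMUSG00000015222, chr1:66175273-66442583, plus strand), the microtubule-associated protein of dendrites and a common marker of mature neurons, was highest in the fibroblasts. From day 0 to day 14 its normalized count was 196, 50.7, 64.8, 91.4 and 45.6. All 4 later libraries lay below day 0, with a partial return on day 10. Log2 changes of -1.93 (-2.58 to -1.38), -1.58 (-2.0 to -1.21), -1.09 (-1.43 to -0.77) and -2.08 (-2.58 to -1.65) were found, the last being 4.23-fold lower. In TPM the change on day 5 was -0.89, or -1.50 relative to the median of all genes. Measured as TPM the day 10 library did not lie below day 0, with a log2 change of 0.11, but the median of all genes on that scale was 1.09, and relative to it Map2 changed by -0.98. Relative to genes of like length its normalized count changed by -2.02 on day 10. An antisense gene, Gm10558, shares 124 exonic bases with Map2, and the library kit does not mark strand, so reads of the 2 cannot be told apart there.

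Mapt (ENSMUSG00000018411, chr11:104231390-104332090, plus strand), which encodes the axonal protein tau, was hardly detected. Its expected counts were 3, 0, 2, 9 and 1. All libraries but that of day 10 were at or under the floor of 3 counts, so a change of tau was not detectable at this depth. In TPM, Map1b stood at 0.260 (0.207 to 0.325) of the level of Map2 on day 0 and at 5.93 (4.46 to 8.05) times its level on day 14, and the order of the 2 genes had turned by day 10, when the ratio was 2.20 (1.82 to 2.67).

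The 2 stathmins moved in opposite directions between days 0 and 5 and again between days 10 and 14. Stmn1 (ENSMUSG00000028832, chr4:134468320-134473843, plus strand), the cytosolic stathmin that binds tubulin dimers and is switched off by phosphorylation at mitosis, had normalized counts of 238, 441, 530, 301 and 130. It was highest on day 5 and lowest on day 14. Against day 0 the log2 changes were 0.89 (0.63 to 1.16), 1.16 (0.94 to 1.38), 0.34 (0.11 to 0.57) and -0.87 (-1.18 to -0.57). The levels on days 10 and 14 depended on the scale. On day 10 the log2 change was past 2-fold relative to genes of like length (1.49) and in TPM (1.55). In TPM relative to the median of all genes, the day 10 change was 0.46. On day 14 the change was -0.09 relative to genes of like length. In TPM it was 0.02 on that day, or -0.76 relative to the median of all genes. The day 5 change was larger relative to genes of like length, at 1.73.

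Stmn2 (ENSMUSG00000027500, chr3:8509360-8561606, plus strand), also called SCG10, is the membrane-anchored stathmin of neuronal growth cones. Its normalized count was 448, 264, 62.1, 71.4 and 163 from day 0 to day 14. This gene, in spite of its neuronal name, was thus highest in the fibroblasts, lowest on days 5 and 10, and in part restored on day 14. Its log2 changes were -0.76 (-1.04 to -0.49), -2.83 (-3.23 to -2.49), -2.63 (-2.98 to -2.33) and -1.45 (-1.72 to -1.21). Relative to day 0 the count was 7.11-fold lower on day 5 and 2.74-fold lower on day 14, with a log2 step of 1.18 (0.83 to 1.55) from day 10 to day 14. In TPM the change on day 14 did not pass 2-fold, at -0.58, or -1.36 relative to the median of all genes.

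Per length, the 2 stathmins began at like levels, with 83.7 TPM for Stmn1 and 83.1 TPM for Stmn2 on day 0 and a ratio of 1.01 (0.857 to 1.18). Stmn1 stood 16.9-fold (13.2 to 21.9) above Stmn2 on day 5, 8.32-fold (6.67 to 10.5) above it on day 10 and 1.53-fold (1.23 to 1.92) above it on day 14. The neuronal family members Stmn3 and Stmn4 gave at most 1 and 6 counts in any library, and Stmn4 was at 0 on days 10 and 14.

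Among the collapsin response mediator proteins, each of the 3 genes had a time course of its own. Dpysl2 (ENSMUSG00000022048, chr14:66802864-66868688, minus strand), or CRMP2, which carries tubulin dimers to growing microtubule ends, had normalized counts of 206, 505, 329, 275 and 408. All later libraries lay above day 0, with high values on days 2 and 14 and a trough on day 10. The log2 changes were 1.29 (1.03 to 1.56), 0.67 (0.43 to 0.93), 0.42 (0.17 to 0.67) and 0.98 (0.75 to 1.23). In TPM the change on day 2 was 0.98, just under 2-fold after 1 was added to both values. The TPM values themselves, 16.0 and 32.6, lay just over 2-fold apart. Relative to genes of like length it turned to -0.51 on day 10 and was 0.48 on day 14. Its highest value rests on the day 2 library, without which the highest is that of day 14, and in TPM its values were 16.0, 32.6, 41.9, 48.1 and 58.2, each above the one before.

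Dpysl3 (ENSMUSG00000024501, chr18:43320984-43438286, minus strand), or CRMP4, was the most abundant of the 3. Its normalized count was 1642, 1225, 698, 928 and 997, so that the fibroblasts held the most and day 5 the least. As log2 changes these values were -0.42 (-0.55 to -0.29), -1.23 (-1.36 to -1.11), -0.82 (-0.93 to -0.72) and -0.72 (-0.83 to -0.61). The change on day 5 was -0.52 in TPM and -0.86 with total counts, neither past 2-fold, and -1.13 in TPM relative to the median of all genes. The direction on the later days depended on the scale, since in TPM the log2 change was 0.39 on day 10 and 0.16 on day 14, and -0.70 and -0.62 relative to the median of all genes. Relative to genes of like length the normalized count was over 2-fold lower on both days, at -1.75 and -1.22.

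Crmp1 (ENSMUSG00000029121, chr5:37241940-37292133, plus strand) was the scarcest, with expected counts of 17, 68, 65, 31 and 29.01 and normalized counts of 16.8, 123, 56.9, 22.1 and 25.9. The libraries of days 2 and 5 stood out, and those of days 10 and 14 were nearer to day 0. The log2 changes were 2.80 (2.09 to 3.73), 1.70 (0.97 to 2.62), 0.38 (-0.50 to 1.34) and 0.60 (-0.29 to 1.58), the last pair within counting error. In TPM the changes on days 10 and 14 were past 2-fold, at 1.21 and 1.15, or 0.11 and 0.37 relative to the median of all genes. The day 2 value, 6.96-fold above day 0, comes from the shallowest library; without it the highest value is that of day 5. Dpysl3 stood 51.6-fold (32.1 to 88.8) above Crmp1 in TPM on day 0 and 5.32-fold (4.14 to 6.93) above it on day 2.

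The other family members, Dpysl4 (CRMP3) and Dpysl5 (CRMP5), were low in the fibroblasts and were both over 2-fold higher on days 10 and 14. Dpysl4 had 15, 13, 27, 54 and 159 expected counts and Dpysl5 had 2, 1, 18, 128 and 78. On day 14 the log2 change of Dpysl4 was 3.18, and no fold is given for Dpysl5, whose day 0 count is under the floor.

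Compared per length within each library, the order of the 10 genes changed from the first day to the last. On day 0 Basp1 led with 171 TPM, followed by Dpysl3 with 105, Stmn1 with 83.7, Stmn2 with 83.1 and Gap43 with 28.2. Dpysl2 followed with 16.0, Map2 with 15.3, Map1b with 3.99, Crmp1 with 2.04 and Mapt with 0.56. The counting intervals of Stmn1 and Stmn2, of Dpysl2 and Map2, and of Crmp1 and Mapt overlapped.

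On day 14 Gap43 led with 1101 TPM, followed by Dpysl3 with 118, Stmn1 with 84.9, Basp1 with 78.0 and Dpysl2 with 58.2. Stmn2 followed with 55.4, Map1b with 33.3, Crmp1 with 5.76, Map2 with 5.62 and Mapt with 0.11. Neighbours whose counting intervals overlapped were Stmn1 and Basp1, Dpysl2 and Stmn2, and Crmp1 and Map2. The summed TPM of the set was 509, 462, 799, 1057 and 1540. In TPM the median log2 change of all genes was -0.20, 0.61, 1.09 and 0.78 from day 2 to day 14. The sum is not corrected for this shift, so it does not show a rise of the set beyond that of other genes. The share of Gap43 in the sum was 5.54%, 20.9%, 21.4%, 38.4% and 71.5%. On day 14 most of the summed TPM was thus that of Gap43.

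**Figure D3:**
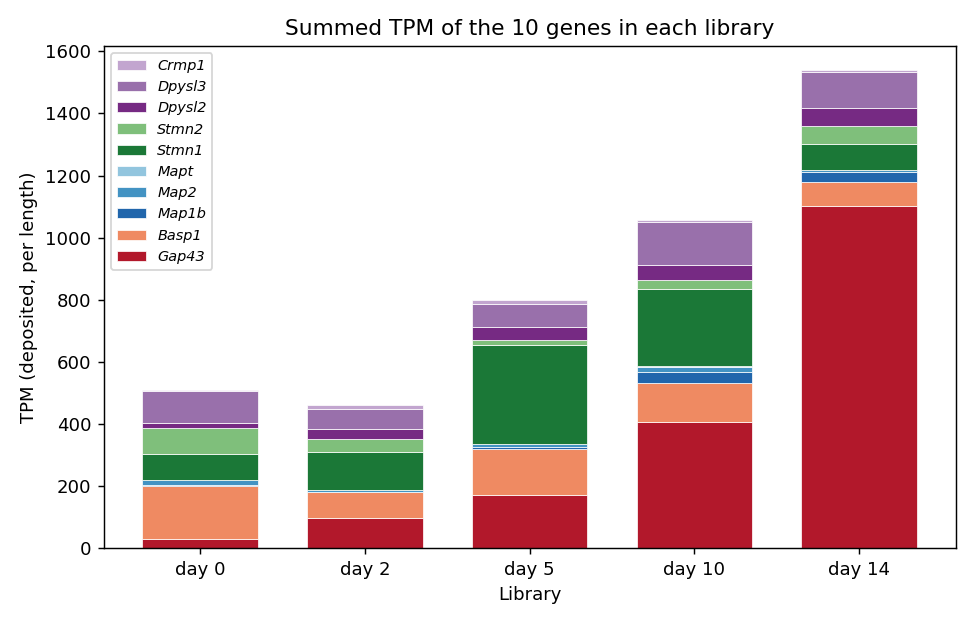
Summed TPM (vertical axis, from 0) of the 10 genes in the library of each day (horizontal axis); the height of each coloured piece is the TPM of 1 gene. Gap43 makes up 5.54% of the bar on day 0 and 71.5% on day 14, Basp1 is the largest piece on day 0, and Stmn1 is the largest on day 5. The heights of the bars are not corrected for the shift of all genes in TPM.

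Marker genes of other cells moved with some of these changes. The 8 Schwann cell and neural crest markers summed here, among them Sox10, Erbb3 and Ngfr, were each over 2-fold above day 0 on days 10 and 14. Of all genes, 28.7% and 24.5% were above on these days. Sox10 and Erbb3, for example, had under 10 expected counts on day 0 and met the limit of 10 through later days. The summed normalized count of the 8 markers was 86.2, 178, 1298, 7460 and 10633 from day 0 to day 14. On day 0 only Gjc3 of this list was at 0. Sox10, the transcription factor that defines this lineage, had normalized counts of 6.93, 21.7, 280, 1055 and 1993. Gap43 was highest on the same day as this sum, as were the summed fibroblast markers. Between days 5 and 10 Gap43 went from 420 to 727, and the Schwann cell and neural crest sum from 1298 to 7460. Between days 10 and 14 Gap43 went from 727 to 2411, and that sum from 7460 to 10633. The part of Schwann and neural crest cells in the increase of Gap43 was not tested. The summed neuron markers were 440, 590, 411, 226 and 558, and most of this sum on days 0, 2 and 14 was Uchl1. Without Uchl1 the sum was 68.7, 101, 301, 174 and 198, highest on day 5. Of the 6 neuron markers that reached 10 counts, 1 was over 2-fold above day 0 on day 2, 4 above and 2 below on day 5, 4 and 2 on day 10, and 3 and 1 on day 14. Of all genes, 15.2%, 20.2%, 28.7% and 24.5% were above on these days, and 13.1%, 13.6%, 22.3% and 19.9% below. Snap25 and Nefl were under 10 counts on day 0 and met the limit only through later days. Their place among those above thus follows in part from the limit. Of the neuron markers, the neurofilament genes Nefl and Nefm, which encode intermediate filaments of axons, were highest on day 5. Their normalized counts were 72.6 and 111 then, against 1.65 and 27.0 on day 0. Tubb3, the tubulin by which the study named its converted cells, had normalized counts of 22.1, 39.8, 91.8, 84.2 and 161, and Uchl1, also neuronal, had 371, 488, 110, 51.4 and 359. Summed fibroblast markers were 67807, 61782, 72491, 92085 and 112212, highest on day 14, with none at 0.

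The dividing cell markers gave a summed normalized count of 719, 950, 1391, 972 and 151, highest on day 5 and lowest on day 14. Stmn1 was highest and lowest on the same days in normalized counts. In TPM, however, Stmn1 was at 83.7 on day 0 and 84.9 on day 14, and so not lowest on day 14. Relative to genes of like length its day 14 change was -0.09. On day 5, 3 of the 8 dividing cell markers were over 2-fold above day 0, beside 20.2% of all genes. On day 14 all 8, Mki67 and Top2a among them, were over 2-fold below it, beside 19.9% of all genes. The part of cell division in the course of Stmn1 was not tested. Macrophage markers summed to 92.9, 459, 567, 361 and 272. Oligodendrocyte markers summed to 46.7, 42.9, 50, 520 and 389, with the high values on days 10 and 14. Astrocyte markers summed to 60.4, 335, 307, 453 and 427, with Gfap and Aqp4 at 0 on day 0.

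**Figure D4:**
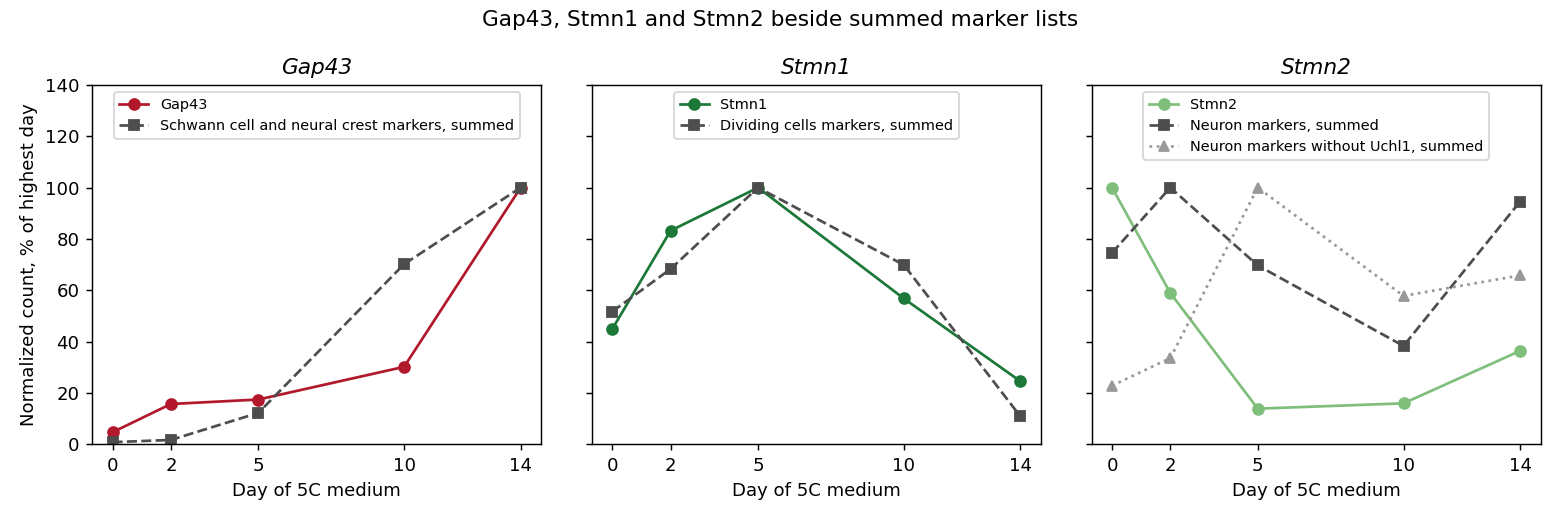
Normalized count as a percentage of its highest day (vertical axis) against day of 5C medium (horizontal axis) for Gap43, Stmn1 and Stmn2 (circles, solid) beside the summed markers of Schwann cells and neural crest, of dividing cells and of neurons (squares, dashed); each point is 1 library. Stmn1 and the dividing cell markers both peak on day 5, Gap43 and the Schwann and neural crest markers on day 14, while Stmn2 is highest on day 0. The summed fibroblast markers, not drawn, also peak on day 14. The summed neuron markers peak on day 2 with Uchl1, which makes up 488 of 590 there, and on day 5 without it (triangles, dotted).

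Beyond the 10 genes, a list of 51 other microtubule and growth cone genes was examined, of which 45 had 10 or more counts. Of these 45, 3 were over 2-fold above day 0 and 6 below on day 2, 8 and 3 on day 5, 13 and 5 on day 10, and 13 and 4 on day 14. The shares above day 0 were 6.67%, 17.8%, 28.9% and 28.9%, beside 15.2%, 20.2%, 28.7% and 24.5% of all genes, and the median log2 change was -0.14, -0.03, 0.38 and 0.22. On days 10 and 14 the share above was thus near that of all genes, and the share below, at 11.1% and 8.89%, was lower than the 22.3% and 19.9% of all genes. The shares below rest on 5 and 4 genes. Since changes moved with gene length and the list was not compared with genes of like length, the lower share is a description only.

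By group, the growth cone membrane and actin proteins had 3 of 9 genes above and 2 below on day 14, the further structural microtubule-associated proteins 2 and 2 of 9, the plus-end proteins 3 and 0 of 8, the severing enzymes 1 and 0 of 6 and the kinases of these proteins 2 and 0 of 9. Gpm6b, a membrane glycoprotein of neurons and glia, had the largest change, with 28, 23, 375.34, 2343.33 and 1079 expected counts. Its normalized count was 58.3-fold higher on day 10 and 33.6-fold higher on day 14 than on day 0. Fign, the microtubule-severing enzyme fidgetin, was 29.7-fold and 21.1-fold higher on those days.

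The log2 change of Nrn1, the membrane-bound neurite growth protein neuritin, was 2.94 on day 10 and 3.23 on day 14, and that of Dclk1, a doublecortin-like kinase that binds microtubules, was 1.98 and 2.07. Doublecortin itself, a marker of young neurons, gave 1 count on day 0 and was at 0 on every later day.

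For each of the 8 genes with 100 or more counts, the genes with the most similar time course among 8256 were found by the Euclidean distance over the 5 libraries between log2 values centred on their own mean. With 5 points from shared libraries such likeness is a description only. Dpysl3 had the closest neighbour, Kpna4, at 0.107, followed by Dpysl2 with Rab13 at 0.127 and Basp1 with Csf1 at 0.164. Stmn1 lay closest to Cdc25b (0.205) and Ccnf (0.210), and Map2 to Filip1l (0.278) and Fst (0.353).

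The nearest neighbours of the other 3 genes were farther away. Map1b lay at 0.331 from Atp2b4 and 0.403 from Scarb2, Stmn2 at 0.492 from Klk8 and 0.761 from Ccn1, and Gap43 at 0.589 from Edil3 and 0.641 from Gm12688. Edil3, the nearest to Gap43, had normalized counts of 33.6, 86.8, 112, 291 and 666. Klk8, the nearest to Stmn2, had 241, 224, 45.5, 54.9 and 121, with the same low values on days 5 and 10 and a partial return on day 14.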

How the data were processed

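Total RNA from 5 cultures, 1 per time point, was extracted with Trizol and made into libraries with a kit that does not mark strand. Per the labels, the submitters' processing notes name Bowtie, RSEM and the build mm10, with versions and annotation not given in the sources used here. For each gene the authors deposited RSEM's expected counts, estimated numbers of reads that need not be whole and are not scaled for depth. Beside them the authors deposited TPM values, divided by gene length and scaled to 1000000 per library, and a gene length in bases. The FPKM values were not used. The last library is labelled day 14, which was used, while its treatment text names day 15. The labels give 5000 cells per well, another number than the study's methods.

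GENCODE M21 (GRCm38) gave symbols and coordinates to 27247 of the 27729 Ensembl identifiers. Its transcript lengths differ slightly from the deposited ones, so the files rest on another release. Expected counts were rounded for library sizes by TMM in edgeR 4.0.16 (R 4.3.3), and normalized counts were obtained by dividing expected counts by these effective sizes and multiplying by their geometric mean. Changes, those of TPM too, are log2 ratios with a pseudocount of 1, which understates the change of low genes, called past 2-fold, among genes that reached 10 expected counts in any library. With 1 library per day, no test was possible. Intervals are exact Clopper-Pearson intervals at 95% without a pseudocount, and cover counting error only. The computation was tested on simulated data.

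The 10 genes, the lists and the markers were chosen with earlier results of these data known. Named beside the 10 genes are other microtubule and growth cone genes with 100 or more counts and a change of 4-fold or more on day 10 or day 14, the other stathmin, CRMP and MARCKS family members, the 2 most similar time courses per gene, and markers as examples of their list. Some genes of the Schwann cell and neural crest list are not reported here, and its sum and counts leave them out. Doublecortin was named after its values were seen, as was Uchl1 for its share of the neuron sum. Alternatives were DESeq2 1.42.0 size factors, total counts, TMM without Gm42418 and Lars2, TPM, a pseudocount of 5, centring on the median of genes of like length (5 classes), a 4-fold threshold, and no or a stricter filter (50 counts). TMM from the 4 libraries other than day 2, TPM centred on the median of all genes and the neuron markers without Uchl1 were added after seeing the data. Scripts ran in Python 3.11.15 (numpy 2.4.6, pandas 2.3.3, scipy 1.17.1, matplotlib 3.10.9). Other experiments of the study were not analysed here.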

Additional observations from a re-analysis of the deposited data

How the results depend on the processing

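Of 156 alternative values of changes that were past 2-fold, 147 stayed past 2-fold in the same direction and 1 took the opposite sign. DESeq2 size factors, TMM factors without Gm42418 and Lars2, a pseudocount of 5 and centring on genes of like length kept all 20 such changes, and TMM factors without the day 2 library kept all 16 that it could give. TPM kept 14 of 20 and lost Basp1 on day 10 (-0.45), Map2 on days 5 (-0.89) and 10, Stmn2 on day 14 (-0.58), Dpysl2 on day 2 (0.98) and Dpysl3 on day 5 (-0.52). The loss of Dpysl2 rests on the pseudocount of 1, since its TPM of 16.0 and 32.6 lay just over 2-fold apart. Total counts kept 18 and lost Map2 on day 10 (-0.62) and Dpysl3 on day 5 (-0.86), and centred TPM kept 19 and lost Map2 on day 10 (-0.98). In TPM, 3 of the 9 genes were below on day 2, 1 on day 5 and 1 on day 10, 5 were above on day 10 and 4 on day 14, the median change was 1.21 on day 10 and 0.16 on day 14, and Map2 on day 10 changed by 0.11. That scale shifts the median of all genes by -0.20, 0.61, 1.09 and 0.78 from day 2 to day 14, and total counts by -0.11, 0.41, 0.60 and 0.42. Calls above day 0 were 53.7%, 59.6%, 56.3% and 55.2% of all calls with TMM factors, 36.0%, 88.9%, 88.6% and 85.6% in TPM and 48.3%, 79.1%, 73.1% and 70.4% with total counts. Centring on genes of like length gave a median of the 9 genes of -0.51 on day 10 and -0.09 on day 14. At 4-fold, 1 gene was above and 0 below on day 2, 0 and 1 on day 5, 2 and 1 on day 10, and 2 and 1 on day 14. Over all genes, those above and below were 1055 and 1875, 4269 and 531, 7057 and 904, and 5548 and 930 in TPM from day 2 to day 14, and 715 and 390, 1161 and 371, 1850 and 1057, and 1560 and 815 at 4-fold. Total counts gave 1007 below on day 5 and 1929 on day 10. Without a filter 3529 were above on day 2, and with 50 or more counts 1203 were above on day 2 and 1721 on day 5.

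No paired analysis was possible because there was 1 library per day, and for the same reason leaving out a replicate was not possible. Depth limits Mapt, Crmp1 and the low family members most, and differences between cultures were not measured.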

Other observations

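The deposited gene length is an average over transcripts weighted by RSEM's estimates, so its course gives a view of which transcripts the reads were assigned to. For Gap43, which has transcripts of 760 and 1420 bases, it was 1167 bases on day 2 and 1420 bases in the other libraries. For Map2, with 24 transcripts of 304 to 6258 bases, it was 4492, 4095, 4775, 4336 and 5237 bases from day 0 to day 14, the longest in the library with the lowest normalized count. For Stmn1 it stayed between 967 and 1060 bases. These estimates rest on 1 library per day and on few counts for Map2, and have no error attached.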
